A study of Mus musculus with 16 samples.

Results

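The 37 genes described here encode the proteins that take up glucose, carry it through glycolysis, make it by gluconeogenesis and store it as glycogen in the liver. They were chosen by name, and each was read from the probe set of highest mean over the 16 arrays among those annotated to that gene's symbol alone. Such a probe set existed for 33 of the 37 genes, out of 19938 genes so annotated on the array, and all 33 passed the filter on low values. Gpi1, Pfkfb1, Eno1 and G6pdx are not analysed here. By role, 6 of the 33 act in uptake and phosphorylation of glucose, 6 are phosphofructokinases or the bifunctional enzymes that control them, 8 belong to lower glycolysis, 6 to gluconeogenesis and glucose release, and 7 to glycogen metabolism.

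Total RNA of mouse liver was hybridised to whole-transcript arrays, with 4 arrays in each of 4 groups, and the series asks how a serine-to-alanine substitution in p65, the NF-κB subunit encoded by Rela, alters the response to lipopolysaccharide (LPS), a bacterial cell wall component that activates NF-κB. The groups were untreated wild-type (WT) liver, WT liver after 1 mg/kg LPS, untreated liver of S534A knock-in mice, and S534A liver after 1 mg/kg LPS. All mice were males labelled C57Bl/6. The knock-in allele was made by homologous recombination in embryonic stem cells, from which the resistance cassette was removed with FLPe, and was brought to homozygosity after backcrosses to C57Bl6/J, so all cells of the animal carry it. No source used here gives the time after LPS, its route, the age of the mice or a vehicle injection. The design text attaches the LPS dose to the untreated S534A group too, and the sample titles were followed. Nothing in the labels says that arrays of 1 group came from separate mice, so each p-value measures the spread between these samples only. Because the allele is a point substitution, the level of Rela does not check the genotype labels. Rela rose in both genotypes, by 1.22 ± 0.08 and 1.41 ± 0.08 on the log2 scale.

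Glycolysis splits glucose to pyruvate, and gluconeogenesis runs the opposite way in liver through bypass enzymes at the steps that glycolysis makes irreversible. Phosphofructokinase is the main control point: the bifunctional enzymes of the Pfkfb family make and break the sugar bisphosphate that activates it and that inhibits the opposing bisphosphatase, Fbp1. The liver releases free glucose to the blood only through glucose-6-phosphatase, and holds glucose as glycogen under the control of targeting subunits that bring a protein phosphatase to glycogen synthase and phosphorylase.

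Promoter sequences are shown for 4 genes, because 3 of them (Pfkfb3, Pfkfb2 and Ppp1r3c) varied with clock genes among untreated arrays and hold the hexamer CACGTG, the E-box that clock activators and other factors can bind, and because G6pc had the largest fall after LPS. Each line gives the 250 bases before the start of the gene, 5′ to 3′ on the gene's own strand, from RefSeq (GRCm38.p6). Capitals mark CACGTG in the first 3 windows and, in G6pc, the core promoter hexamer TATAAA. The windows are chr2:11502091-11502340, minus strand, chr1:130715822-130716071, minus strand, chr19:36736605-36736854, minus strand, and chr11:101367466-101367715, plus strand.
Pfkfb3: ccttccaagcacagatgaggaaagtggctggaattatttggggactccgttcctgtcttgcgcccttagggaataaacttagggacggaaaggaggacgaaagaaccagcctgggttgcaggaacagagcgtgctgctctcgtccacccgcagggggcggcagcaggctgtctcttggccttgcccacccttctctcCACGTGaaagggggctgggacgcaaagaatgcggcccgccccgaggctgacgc
Pfkfb2: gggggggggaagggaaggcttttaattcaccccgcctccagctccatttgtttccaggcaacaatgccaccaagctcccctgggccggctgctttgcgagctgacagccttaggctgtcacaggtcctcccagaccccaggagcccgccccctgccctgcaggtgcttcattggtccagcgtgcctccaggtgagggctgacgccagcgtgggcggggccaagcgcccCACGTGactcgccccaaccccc
Ppp1r3c: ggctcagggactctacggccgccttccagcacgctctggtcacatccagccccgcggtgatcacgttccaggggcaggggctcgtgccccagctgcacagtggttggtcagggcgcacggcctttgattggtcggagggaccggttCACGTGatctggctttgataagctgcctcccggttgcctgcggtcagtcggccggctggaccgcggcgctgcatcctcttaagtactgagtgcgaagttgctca
G6pc: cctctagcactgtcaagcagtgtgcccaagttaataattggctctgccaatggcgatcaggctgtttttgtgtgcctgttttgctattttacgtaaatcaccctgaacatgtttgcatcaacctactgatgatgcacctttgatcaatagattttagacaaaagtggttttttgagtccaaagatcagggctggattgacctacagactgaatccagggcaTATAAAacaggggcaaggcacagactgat
The match begins at base -53 from the start in Pfkfb3, -22 in Pfkfb2, -104 in Ppp1r3c and -29 in G6pc. The table holds 2 starts of Pfkfb3 and 3 of Pfkfb2, and 1 of each holds the hexamer.

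Windows were found for 35 of the 37 genes, and those of Gys2 and Ppp1r3b were not analysed here. On either strand, CACGTG lay before at least 1 start of 6 of the 35 genes (Pfkm, Pfkfb2, Pfkfb3, Ldha, Pcx and Ppp1r3c), or 17.1%, against 6.86% of 27025 genes in the table. Counted by window, 6 of the 56 windows of these 35 genes held it, against 6.02% of all 32851 windows. A gene with more starts has more windows in which to hold a match. The shorter ACGTG, which every CACGTG contains, was found for 15 genes (18.49% of all genes). TGACG, the half-site of the cyclic AMP response element, was found for 9 genes (19.79% of all genes), and the full palindrome TGACGTCA, which contains it, for Ldha alone (1.77% of all genes). TATAAA was found for G6pc, Pfkfb1, Pklr and Slc37a4 (14.33% of all genes). A match describes the letters of a window and says nothing of binding, and these shares were not tested.

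After LPS, 8 of the 33 measured genes rose in WT and 15 fell, at an adjusted p below 0.05 (limma, adjusted over 15908 genes). Of all genes tested, 14.9% rose and 29.9% fell. In S534A, 8 rose and 18 fell, against 14.2% and 31.2% of all genes. The same 8 genes rose in both genotypes: Hk2, Hk3, Pfkp, Pfkfb2, Pfkfb3, Pfkfb4, Ldha and Pcx. The same 15 fell in both: Slc2a1, Slc2a2, Pfkl, Pfkm, Aldoa, Aldoc, Tpi1, Pgk1, Pgam1, Eno3, Pklr, G6pc, Pygl, Ppp1r3b and Ppp1r3c. Gckr, Ugp2 and Ppp1r3g passed the test in S534A alone, and Hk1, Pck1, Pck2, Fbp1, Slc37a4, Gys2 and Gbe1 in neither. The median change of the 33 genes was -0.23 in WT and -0.35 in S534A, beside -0.05 and -0.03 over all genes tested. The arrays of untreated and LPS liver did not overlap for 21 of the 33 genes in WT and 23 in S534A, where this held for 38.3% and 48.1% of all genes. With arrays centred on their medians, which moved the median of all genes to -0.16 in WT and -0.13 in S534A, 7 members rose and 18 fell in WT, and 7 rose and 20 fell in S534A. Of all 15908 genes, 1838 then rose and 6493 fell in WT, in place of 2377 and 4762, and 1703 rose and 6231 fell in S534A, in place of 2258 and 4967.

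**Figure D1:**
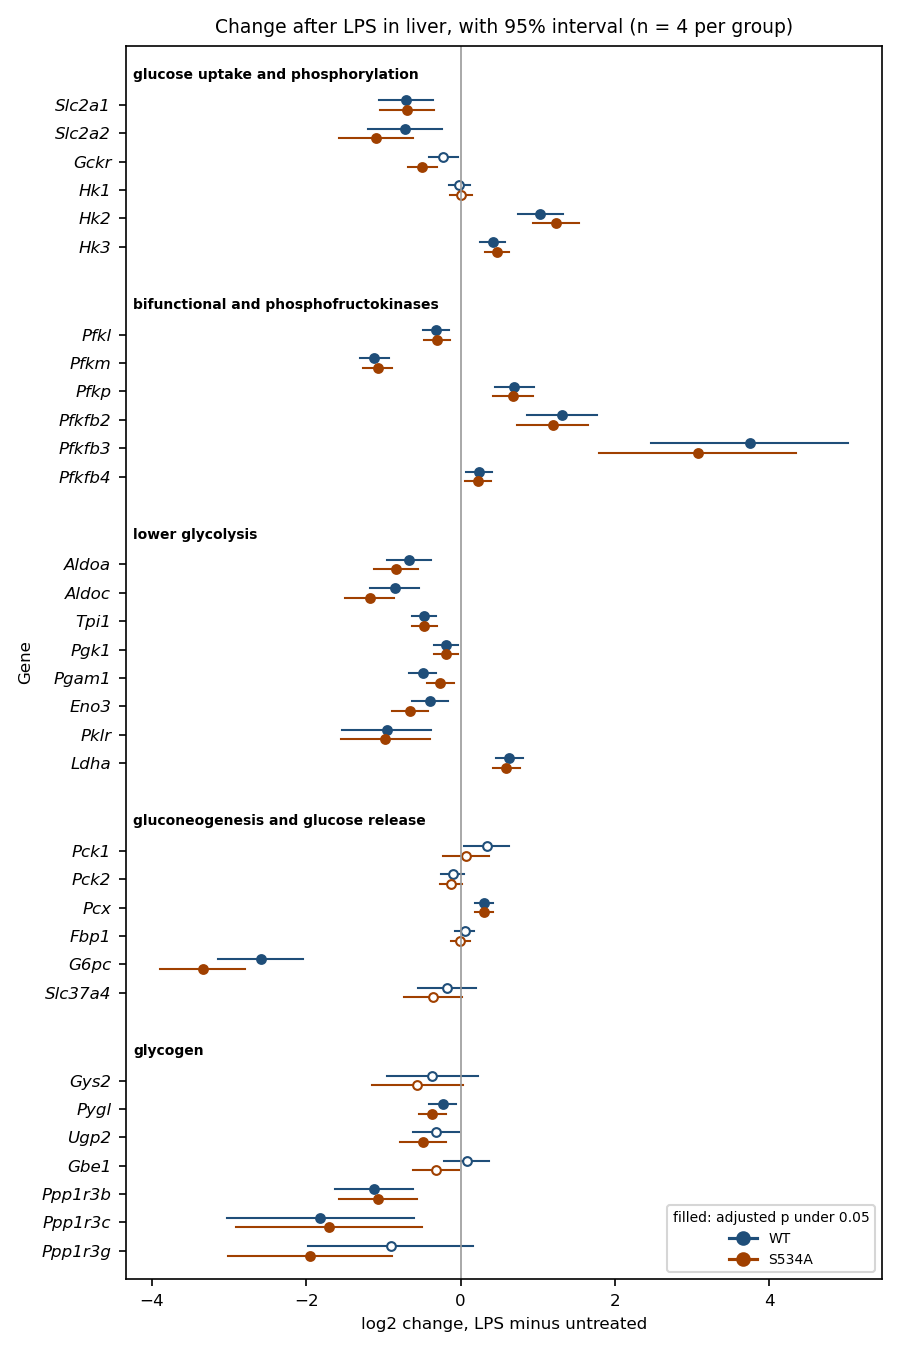
The log2 change after LPS is plotted for the 33 genes, grouped by role, as a point with its 95% interval from limma, in WT (blue) and S534A (brown), with filled points where the adjusted p was below 0.05. Pfkfb3 lies farthest to the right at 3.74 in WT, G6pc farthest to the left at -3.34 in S534A, and the intervals of the 2 genotypes overlap for every gene shown.

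Array medians lay between 6.25 and 6.42 on the log2 scale. Of the 9 measured hepatocyte markers, 3 rose and 1 fell in WT, and their mean level was 13.37 to 13.46 in untreated and 13.42 to 13.47 in LPS arrays of WT. All 12 measured neutrophil and monocyte markers rose in both genotypes, from a mean level of 6.03 to 6.21 to one of 8.14 to 8.85 in WT, and from 5.99 to 6.13 to 8.22 to 8.62 in S534A. Markers of resident cells fell: 10 of 12 Kupffer cell markers, 9 of 11 sinusoidal endothelial markers and 8 of 11 stellate cell and fibroblast markers were lower in each genotype, while 1 Kupffer and 2 endothelial markers rose. Of 8 markers of muscle, fat and pancreas 1 rose in WT and none in S534A, and their mean level stayed between 6.15 and 6.89 in all arrays. In bulk tissue, fewer cells of a type and less RNA per cell cannot be told apart. A clock score, in which the log2 level of Arntl is subtracted from the mean of Tef, Dbp, Per1, Per2 and Per3, split the untreated arrays: it was -1.70, 3.43, -1.77 and 3.47 in WT replicates 1 to 4 and 3.33, 3.41, -2.55 and 0.96 in S534A, against -0.70 to 1.63 in the LPS arrays. Results below are therefore also given without the 3 untreated arrays that scored below 0, where leaving them out made or ended a call or moved a change by over 1.5 times, and for some smaller moves. Leaving them out keeps only WT untreated replicates 2 and 4 and S534A untreated replicates 1, 2 and 4. Without the 3 arrays, 8 members rose and 17 fell in WT, and 7 rose and 21 fell in S534A. Of all genes, 2239 then rose and 4466 fell in WT, and 2265 rose and 4943 fell in S534A.

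Among the genes of glucose uptake and phosphorylation, 2 hexokinases rose and the 2 glucose transporters fell. Hk2, the insulin-responsive hexokinase of muscle and fat that liver normally holds at a low level, read 6.42, 6.38, 6.64 and 6.38 in untreated and 7.73, 7.44, 7.16 and 7.63 in LPS arrays of WT (log2 values in replicate order here and below). In S534A it read 6.31, 6.48, 6.47 and 6.49 in untreated and 8.15, 7.56, 7.48 and 7.51 in LPS arrays. The groups did not overlap in either genotype, and the change was 1.03 ± 0.14 in WT (adjusted p = 1.13e-05) and 1.24 ± 0.14 in S534A (adjusted p = 1.51e-06). Hk3, a hexokinase best known from myeloid cells, read 6.48, 6.50, 6.37 and 6.50 untreated and 6.95, 6.88, 6.77 and 6.92 after LPS in WT. The S534A arrays read 6.54, 6.44, 6.44 and 6.37 untreated and 7.09, 6.88, 6.74 and 6.96 after LPS, again without overlap. The rise was smaller than that of Hk2, at 0.42 ± 0.08 in WT (adjusted p = 0.000223) and 0.47 ± 0.08 in S534A (adjusted p = 6.4e-05). All 12 neutrophil and monocyte markers rose in the same arrays, and their part in the rise of Hk2 and Hk3 was not tested.

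Slc2a2, the high-capacity glucose transporter (GLUT2) of the hepatocyte membrane, read 11.47, 12.08, 11.25 and 11.99 in untreated WT arrays and 11.06, 11.23, 10.68 and 10.95 after LPS. In S534A the levels were 12.24, 12.37, 11.62 and 12.07 untreated and 10.86, 10.38, 11.31 and 11.39 after LPS. Every LPS array lay below every untreated array of its genotype, and the change was -0.72 ± 0.23 in WT (adjusted p = 0.0158) and -1.09 ± 0.23 in S534A (adjusted p = 0.000749). The fall in WT missed the threshold without untreated replicate 2 (-0.59, adjusted p = 0.0575), untreated replicate 4 (-0.62, 0.0511) or LPS replicate 3 (-0.62, 0.0541), and was -1.05 (adjusted p = 0.00148) without the arrays scoring below 0. Slc2a1, a basal glucose transporter (GLUT1), read 9.55, 9.13, 9.30 and 9.33 untreated and 8.70, 8.82, 8.36 and 8.61 after LPS in WT. S534A arrays read 9.23, 9.23, 9.66 and 9.48 untreated and 9.26, 8.37, 8.53 and 8.65 after LPS, where the first LPS array reached the untreated range. Slc2a1 changed by -0.70 ± 0.16 in WT (adjusted p = 0.00192) and -0.70 ± 0.16 in S534A (adjusted p = 0.00205). Most endothelial, Kupffer and stellate cell markers fell in the same arrays, and their part was not tested.

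Gckr, a regulatory protein of glucose phosphorylation in liver, read 10.80, 10.80, 11.10 and 10.80 in untreated and 10.55, 10.28, 10.35 and 10.36 in LPS arrays of S534A, without overlap, a change of -0.49 ± 0.09 (limma, adjusted p = 0.000221). In WT the levels were 10.69, 10.68, 10.73 and 10.94 untreated and 10.47, 10.64, 10.43 and 10.62 after LPS, also without overlap. The WT change of -0.22 ± 0.09 narrowly missed the threshold (limma, adjusted p = 0.0539). It passed without WT LPS replicate 2 (adjusted p = 0.0384), S534A LPS replicate 1 (0.0449) or S534A untreated replicate 3 (0.0331), and without the arrays scoring below 0 (-0.27, 0.0448). The difference between the genotypes' changes was -0.27 ± 0.13 (limma, adjusted p = 0.951). Hk1, the hexokinase of most tissues, lay between 12.15 and 12.46 in every array, with a change of -0.01 ± 0.07 in WT and 0.01 ± 0.07 in S534A. Its probe set is annotated through a cDNA that 16 other probe sets list together with Rpl17, a ribosomal protein gene, so its level may not be that of Hk1. The other Hk1 probe set, at a mean of 6.78, changed by -0.06 in WT and 0.12 in S534A (limma, adjusted p = 0.647 and 0.269).

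The phosphofructokinase step held the largest rise of the set and opposite changes among the subunits of the enzyme. Of its 6 genes, the 3 measured bifunctional enzymes and the platelet-type subunit rose and the liver-type and muscle-type subunits fell, in both genotypes. Pfkfb3, the inducible bifunctional enzyme with a strong preference for making the activator, read 6.86, 9.02, 6.60 and 9.20 in untreated and 11.81, 11.42, 11.75 and 11.68 in LPS arrays of WT. In S534A the levels were 9.78, 9.02, 6.55 and 8.73 untreated and 11.34, 11.70, 11.71 and 11.61 after LPS. The LPS arrays of both genotypes lay within 11.34 to 11.81, far above every untreated array, while the untreated arrays themselves spread over more than 3 log2 units. The change was 3.74 ± 0.60 in WT, or 13.4-fold (adjusted p = 6.94e-05), and 3.07 ± 0.60 in S534A, or 8.40-fold (adjusted p = 0.000435, limma). The low untreated readings were WT replicates 1 and 3 and S534A replicate 3, the arrays with a clock score below 0. Without them the change was 2.55 in WT, or 5.87-fold (adjusted p = 3.2e-07), and 2.41 in S534A, or 5.33-fold (adjusted p = 1.17e-07, limma). Leaving out S534A untreated replicate 3 alone gave the same 2.41 there.

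Pfkfb2, the bifunctional enzyme of heart that insulin signalling activates, read 8.27, 8.93, 8.19 and 8.92 in untreated and 9.95, 10.02, 9.71 and 9.90 in LPS arrays of WT. Its levels in S534A were 9.08, 9.14, 8.15 and 8.66 untreated and 10.35, 9.65, 9.94 and 9.86 after LPS. No array of the groups compared overlapped, and the rise was 1.32 ± 0.22 in WT (adjusted p = 8.4e-05) and 1.19 ± 0.22 in S534A (adjusted p = 0.000212). Without the arrays scoring below 0 the WT rise was 0.97 (adjusted p = 0.000316). Pfkfb4, another bifunctional enzyme, read 5.76, 5.85, 5.73 and 5.82 in untreated and 5.94, 6.10, 5.97 and 6.06 in LPS arrays of S534A, without overlap, and ranged over 5.60 to 5.94 and 5.93 to 6.20 in WT, where the groups overlapped. Its small rise of 0.23 ± 0.08 in WT (adjusted p = 0.0236) and 0.23 ± 0.08 in S534A (adjusted p = 0.0279) did not pass with arrays centred on their medians (0.13 in each genotype). In WT it was lost without untreated replicate 2 (adjusted p = 0.0937) or LPS replicate 3 (0.0872). In S534A it was lost without LPS replicate 2 (0.081) or 4 (0.0691) or untreated replicate 1 (0.0648) or 3 (0.0718), or without the arrays scoring below 0 (0.0538).

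Pfkm, the muscle-type subunit, was lower in every LPS array. Its levels were 8.69, 8.38, 8.62 and 8.44 in untreated and 7.45, 7.44, 7.27 and 7.50 in LPS arrays of WT, and 8.30, 8.62, 8.62 and 8.44 against 7.45, 7.31, 7.43 and 7.49 in S534A. The change of -1.12 ± 0.09 in WT (adjusted p = 2.6e-08) and -1.07 ± 0.09 in S534A (adjusted p = 4.34e-08) had the lowest p-value of the 33 genes in WT. Pfkl, the liver-type subunit, read 8.90, 8.72, 8.84 and 8.92 untreated and 8.47, 8.56, 8.39 and 8.66 after LPS in WT, and 8.60, 8.66, 8.83 and 8.68 against 8.54, 8.31, 8.35 and 8.33 in S534A. Its fall was smaller, -0.32 ± 0.08 in WT (adjusted p = 0.00286) and -0.31 ± 0.08 in S534A (adjusted p = 0.004), again without overlap. Pfkp, the platelet-type subunit, went the other way, from 5.99, 5.82, 6.12 and 6.13 to 6.67, 6.82, 6.68 and 6.68 in WT and from 5.87, 6.08, 6.33 and 6.02 to 7.04, 6.43, 6.71 and 6.84 in S534A. It rose by 0.69 ± 0.12 in WT (adjusted p = 0.00014) and 0.68 ± 0.12 in S534A (adjusted p = 0.000165). Leukocyte markers rose in the same arrays, and their part in the rise of Pfkp and Pfkfb3 was not tested.

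**Figure D2:**
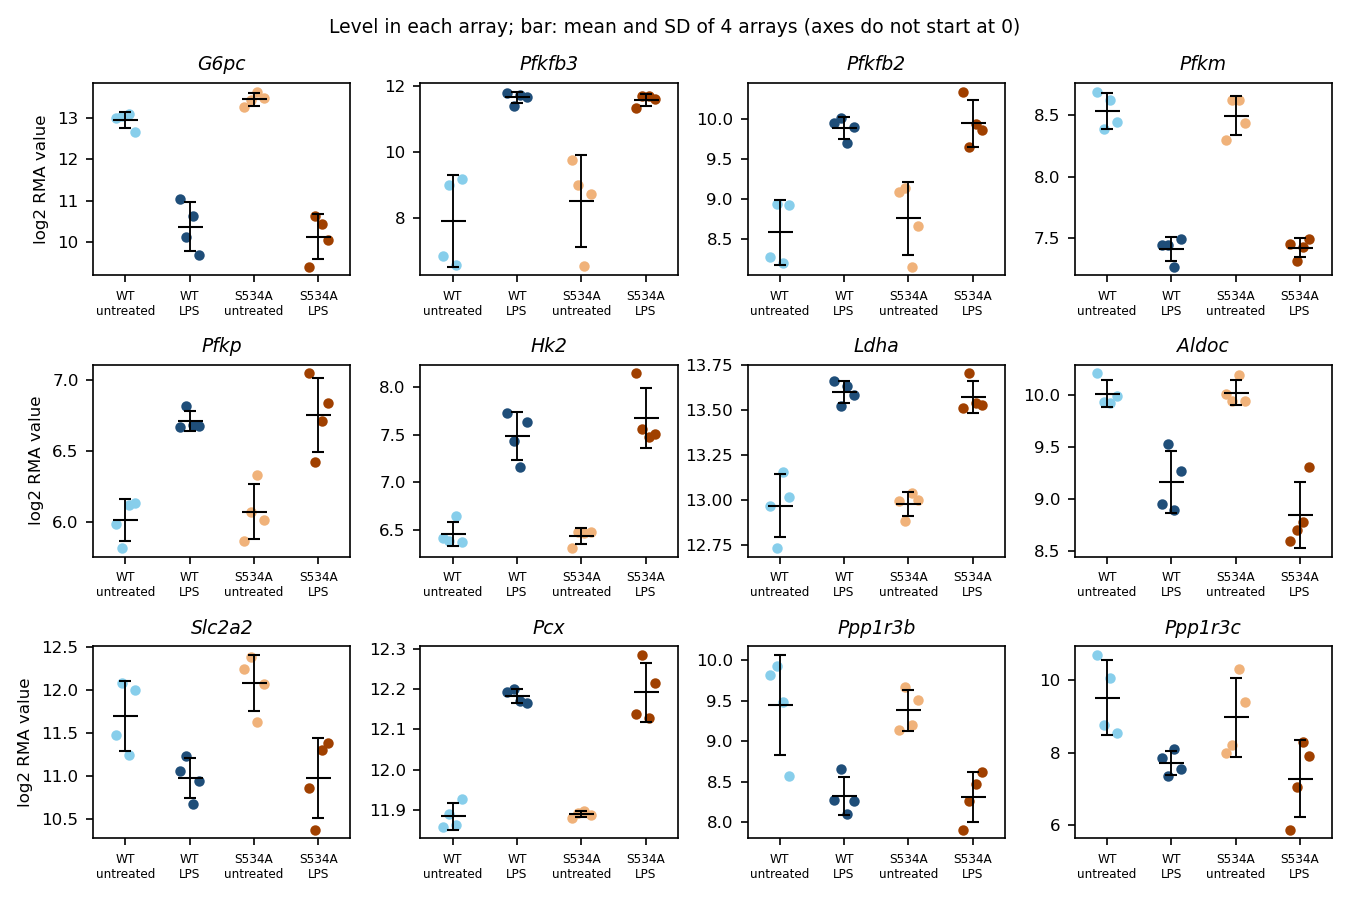
Log2 RMA values of 12 genes are plotted for each array (points) with the group mean and SD (bars, n = 4), in WT and S534A, untreated and after LPS. Pfkfb3 sits between 11.34 and 11.81 in all LPS arrays while its untreated arrays fall into a low and a high set, and every LPS value of G6pc, at most 11.03, is below every untreated value, at least 12.67.

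In lower glycolysis, 7 of 8 genes fell in each genotype and Ldha rose. Aldoc, an aldolase best known from brain, had the largest fall of these in S534A. It read 10.21, 9.93, 9.93 and 9.99 untreated and 8.95, 9.53, 8.90 and 9.27 after LPS in WT, and 10.02, 9.95, 10.20 and 9.94 against 8.60, 8.71, 8.78 and 9.31 in S534A. The change was -0.85 ± 0.15 in WT (adjusted p = 0.000178) and -1.18 ± 0.15 in S534A (adjusted p = 6.55e-06). Aldoa, the muscle-type aldolase, went from 10.77, 11.21, 10.82 and 11.01 to 10.05, 10.36, 10.40 and 10.34 in WT and from 10.94, 11.09, 10.52 and 10.90 to 10.34, 9.92, 9.88 and 9.95 in S534A. Its groups did not overlap either, with a change of -0.66 ± 0.13 in WT (adjusted p = 0.000619) and -0.84 ± 0.13 in S534A (adjusted p = 6.47e-05). Pklr, the liver pyruvate kinase that insulin and glucose induce, read 11.62, 12.08, 11.49 and 11.93 untreated and 10.73, 11.41, 10.40 and 10.74 after LPS in WT. In S534A it read 12.26, 11.93, 11.41 and 11.90 untreated and 10.16, 10.70, 11.11 and 11.64 after LPS, where 1 LPS array lay inside the untreated range. The change was -0.96 ± 0.27 in WT (adjusted p = 0.00772) and -0.97 ± 0.27 in S534A (adjusted p = 0.00693).

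The enzymes that handle the three-carbon intermediates fell by less. Tpi1, triose phosphate isomerase, read 12.13, 11.95, 12.04 and 11.82 untreated and 11.44, 11.47, 11.51 and 11.61 after LPS in WT, and 11.77, 11.82, 12.00 and 11.91 against 11.35, 11.48, 11.41 and 11.39 in S534A. It fell without overlap, by -0.48 ± 0.07 in WT (adjusted p = 5.46e-05) and -0.47 ± 0.07 in S534A (adjusted p = 6.35e-05). Pgam1, phosphoglycerate mutase, read 11.58, 11.39, 11.42 and 11.16 against 10.78, 10.97, 10.90 and 10.96 in WT and 11.08, 11.08, 11.18 and 11.25 against 10.81, 10.86, 10.90 and 10.97 in S534A. Its change was -0.49 ± 0.08 in WT (adjusted p = 0.000115) and -0.27 ± 0.08 in S534A (adjusted p = 0.014), and the S534A call was lost without untreated replicate 4 (adjusted p = 0.0505). Eno3, the muscle-type enolase, went from 7.34, 7.55, 7.48 and 7.46 to 7.00, 7.04, 7.10 and 7.14 in WT and from 7.44, 8.06, 7.78 and 7.50 to 7.10, 7.16, 6.86 and 7.05 in S534A, without overlap, a change of -0.39 ± 0.11 in WT (adjusted p = 0.00805) and -0.65 ± 0.11 in S534A (adjusted p = 0.000121). The least certain fall was that of Pgk1, phosphoglycerate kinase, at -0.19 ± 0.07 in WT (adjusted p = 0.0439) and -0.19 ± 0.07 in S534A (adjusted p = 0.0438). Its S534A arrays read 11.83, 11.99, 11.88 and 11.91 untreated and 11.63, 11.70, 11.74 and 11.78 after LPS without overlap, and its WT arrays ranged over 11.67 to 12.04 and 11.65 to 11.73. Leaving out any of several single arrays ended the call. In WT these were WT untreated 1, 2 or 3, any WT LPS array, S534A untreated 3 or 4 and S534A LPS 2, 3 or 4 (adjusted p 0.0509 to 0.153). In S534A they were S534A untreated 2, 3 or 4, S534A LPS 1, 2 or 3, WT untreated 2 or 3 and WT LPS 1 or 4 (0.0501 to 0.123). Without the arrays scoring below 0 the WT change was -0.09 (adjusted p = 0.432). Pgk1 and Pgam1 each have 3 probe sets, of which 2 hold identical values, so near-identical copies of these genes may share the signal.

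Ldha, the lactate dehydrogenase subunit that favours lactate formation, read 12.97, 12.73, 13.16 and 13.01 untreated and 13.66, 13.52, 13.64 and 13.59 after LPS in WT. In S534A its levels were 13.00, 12.88, 13.04 and 13.00 untreated and 13.51, 13.71, 13.54 and 13.53 after LPS. Every LPS array lay above every untreated array, and the rise was 0.63 ± 0.08 in WT (adjusted p = 6.51e-06) and 0.59 ± 0.08 in S534A (adjusted p = 1.35e-05). At least 1 window before a start of Ldha holds CACGTG and TGACGTCA.

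In gluconeogenesis and glucose release, the last enzyme fell most, the first rose slightly and the others did not pass the test. G6pc, the catalytic subunit of glucose-6-phosphatase, read 13.01, 13.07, 13.09 and 12.67 in untreated and 11.03, 10.12, 10.63 and 9.68 in LPS arrays of WT. The S534A arrays read 13.27, 13.45, 13.65 and 13.49 untreated and 9.39, 10.63, 10.42 and 10.04 after LPS. The highest LPS array, at 11.03, lay far below the lowest untreated array, at 12.67. The change was -2.59 ± 0.26 in WT, 6.03-fold lower (adjusted p = 4.04e-07), and -3.34 ± 0.26 in S534A, 10.1-fold lower (adjusted p = 1.76e-08, limma). Untreated S534A arrays all lay above untreated WT arrays, by 0.50 ± 0.26 (limma, adjusted p = 0.604), and the difference between the genotypes' changes was -0.75 ± 0.37 (95% interval -1.53 to 0.03, limma adjusted p = 0.951). The 3 untreated arrays with a clock score below 0 read 13.01, 13.09 and 13.65 and the other 5 read 12.67 to 13.49, so the 2 sets overlapped. Slc37a4, the carrier that brings glucose phosphate to this enzyme in the endoplasmic reticulum, ranged over 11.64 to 12.19 in untreated and 11.62 to 11.99 in LPS arrays of WT, and 11.44 to 12.35 and 11.36 to 11.84 in S534A. It changed by -0.18 ± 0.18 in WT and -0.35 ± 0.18 in S534A (limma, adjusted p = 0.469 and 0.117). It passed the test in both genotypes without the arrays scoring below 0, at -0.41 and -0.55 (limma, adjusted p = 0.0223 and 0.00154), and S534A untreated replicate 3 alone decided the S534A call (0.00603 without it).

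Pcx, the mitochondrial pyruvate carboxylase that starts gluconeogenesis, had narrow groups. It read 11.86, 11.89, 11.86 and 11.93 untreated and 12.19, 12.20, 12.17 and 12.17 after LPS in WT, and 11.88, 11.89, 11.90 and 11.89 against 12.14, 12.29, 12.13 and 12.22 in S534A. The rise of 0.30 ± 0.05 in WT (adjusted p = 0.000225) and 0.30 ± 0.05 in S534A (adjusted p = 0.000191) was small but exceeded the spread of every group. Pck1, the cytosolic enzyme whose transcription fasting hormones drive, ranged over 12.41 to 13.14 untreated and 13.04 to 13.22 after LPS in WT, a change of 0.34 ± 0.14 (limma, adjusted p = 0.0595). Leaving out WT untreated replicate 2 (0.46, adjusted p = 0.0104) or 4 (0.43, 0.0186) made it pass, and without the arrays scoring below 0 the change was 0.01 (0.94). In S534A Pck1 changed by 0.07 ± 0.14. Fbp1, the bisphosphatase that opposes phosphofructokinase, lay between 13.41 and 13.61 in all 16 arrays, with a change of 0.05 ± 0.06 in WT (95% interval -0.07 to 0.17) and -0.00 ± 0.06 in S534A (-0.12 to 0.12). With arrays centred on their medians the WT change of Fbp1 was -0.05. Pck2, the mitochondrial counterpart of Pck1, ranged over 7.39 to 7.52 and 7.30 to 7.36 in WT and 7.31 to 7.54 and 7.13 to 7.38 in S534A. It changed by -0.10 ± 0.07 and -0.13 ± 0.07, and passed in both genotypes only with arrays centred on their medians.

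Of the 7 glycogen genes, 3 fell in WT, 5 fell in S534A and none rose. Ppp1r3b, the main such subunit of liver, read 9.82, 9.93, 9.49 and 8.57 untreated and 8.27, 8.65, 8.11 and 8.26 after LPS in WT, where untreated replicate 4 lay within the LPS range. In S534A it read 9.14, 9.67, 9.20 and 9.51 untreated and 7.91, 8.26, 8.47 and 8.62 after LPS, without overlap. The change was -1.13 ± 0.24 in WT (adjusted p = 0.000902) and -1.06 ± 0.24 in S534A (adjusted p = 0.0014). Ppp1r3c, a subunit of many tissues, read 10.71, 8.77, 10.06 and 8.55 untreated and 7.84, 7.34, 8.10 and 7.54 after LPS in WT. The S534A arrays read 7.97, 8.21, 10.32 and 9.40 untreated and 5.87, 7.05, 8.29 and 7.89 after LPS and overlapped. Its fall of -1.82 ± 0.57 in WT (adjusted p = 0.0153) and -1.70 ± 0.57 in S534A (adjusted p = 0.0217) rested on single arrays. In WT it was -1.42 without untreated replicate 1 (adjusted p = 0.0591) and -0.95 without the arrays scoring below 0 (0.162). In S534A it was -1.24 without LPS replicate 1 (adjusted p = 0.0844), -1.63 without LPS replicate 2 (0.0517), -1.26 without untreated replicate 3 (0.0822) and -1.56 without untreated replicate 4 (0.0594), and it passed without all 3 arrays scoring below 0 (-1.26, 0.0371).

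Ppp1r3g, a subunit whose liver level follows feeding and fasting, passed the test in S534A alone. It read 9.81, 10.31, 8.95 and 10.05 in untreated and 8.78, 7.27, 7.55 and 7.71 in LPS arrays of S534A, without overlap, a change of -1.95 ± 0.50 (limma, adjusted p = 0.0042). In WT it read 7.07, 9.98, 7.24 and 7.56 untreated and 7.37, 6.64, 7.20 and 7.04 after LPS, a change of -0.90 ± 0.50 (adjusted p = 0.167, limma). Untreated replicate 2 stood far above the other WT arrays, and without it the WT change was -0.23. Without the 3 arrays scoring below 0 it was -1.71 (limma, adjusted p = 0.0132). The difference between the genotypes' changes was -1.04 ± 0.71 (limma, adjusted p = 0.951).

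Ugp2, which makes the activated glucose that glycogen synthase uses, read 11.57, 11.50, 11.16 and 11.33 in untreated and 10.82, 10.73, 11.07 and 10.98 in LPS arrays of S534A, a fall of 0.49 ± 0.14 (limma, adjusted p = 0.00821). In WT its change was -0.32 ± 0.14 (adjusted p = 0.0774, limma), and it passed without untreated replicate 1 (-0.43, adjusted p = 0.016) or without the arrays scoring below 0 (-0.58, 0.00139). Pygl, the liver glycogen phosphorylase, read 11.71, 11.66, 11.68 and 11.64 untreated and 11.12, 11.22, 11.40 and 11.47 after LPS in S534A, and ranged over 11.46 to 11.70 and 11.28 to 11.52 in WT, where the groups overlapped. It changed by -0.23 ± 0.08 in WT (adjusted p = 0.0289) and -0.37 ± 0.08 in S534A (adjusted p = 0.00135). The WT call was lost without untreated replicate 1 or 2 or LPS replicate 1, 3 or 4 (limma, adjusted p 0.0623 to 0.0875), and without the arrays scoring below 0 the change was -0.19 (0.18). Gys2, the liver glycogen synthase, ranged over 11.26 to 12.49 untreated and 11.20 to 11.73 after LPS in WT, a change of -0.37 ± 0.28 (limma, adjusted p = 0.33). In S534A the change was -0.56 ± 0.28 (limma, adjusted p = 0.118). Without the arrays scoring below 0 Gys2 passed in both genotypes, at -0.91 and -0.77 (limma, adjusted p = 0.00295 and 0.00354), and without S534A untreated replicate 3 alone it passed in S534A (0.0338). Gbe1, the branching enzyme, changed by 0.08 ± 0.14 in WT and -0.32 ± 0.14 in S534A, where it passed without LPS replicate 4 (-0.42, limma adjusted p = 0.0256) or untreated replicate 3 (-0.41, 0.0259), or without the arrays scoring below 0 (-0.41, 0.0164). It ranged over 10.40 to 10.98 and 10.55 to 11.01 in untreated and LPS arrays of WT and 10.74 to 11.20 and 10.52 to 11.01 in S534A.

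Glucose and glycogen genes also differed among the untreated arrays, and part of that spread followed the clock score. The 3 untreated arrays that scored below 0 and the other 5 did not overlap for 11 of the 33 genes, or 33.3%, where this held for 21.5% of all genes. These arrays come from both genotypes, the split was read from the clock genes of the same arrays, and it is given as a description. Slc2a2, Pfkfb2, Pfkfb3, Aldoa, Pklr, Pck1, Slc37a4, Gys2 and Ugp2 were lower in the low-scoring arrays, and Tpi1 and Ppp1r3c higher. Pfkfb3 read 6.55 to 6.86 in the 3 arrays and 8.73 to 9.78 in the other 5. Its SD was 1.32 over the 8 untreated arrays and 0.16 over the 8 LPS arrays. Ppp1r3c ran the opposite way, from 10.06 to 10.71 against 7.97 to 9.40. Gys2 read 11.26 to 11.57 against 12.23 to 12.53, Slc37a4 11.44 to 11.76 against 12.06 to 12.35, and Pfkfb2 8.15 to 8.27 against 8.66 to 9.14. The hexamer CACGTG lay in a promoter window of 3 of the 10 separated genes with a window (Pfkfb2, Pfkfb3 and Ppp1r3c) and of 3 of the 21 others. These counts are small, and whether the hexamer has a part in the split was not tested.

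**Figure D3:**
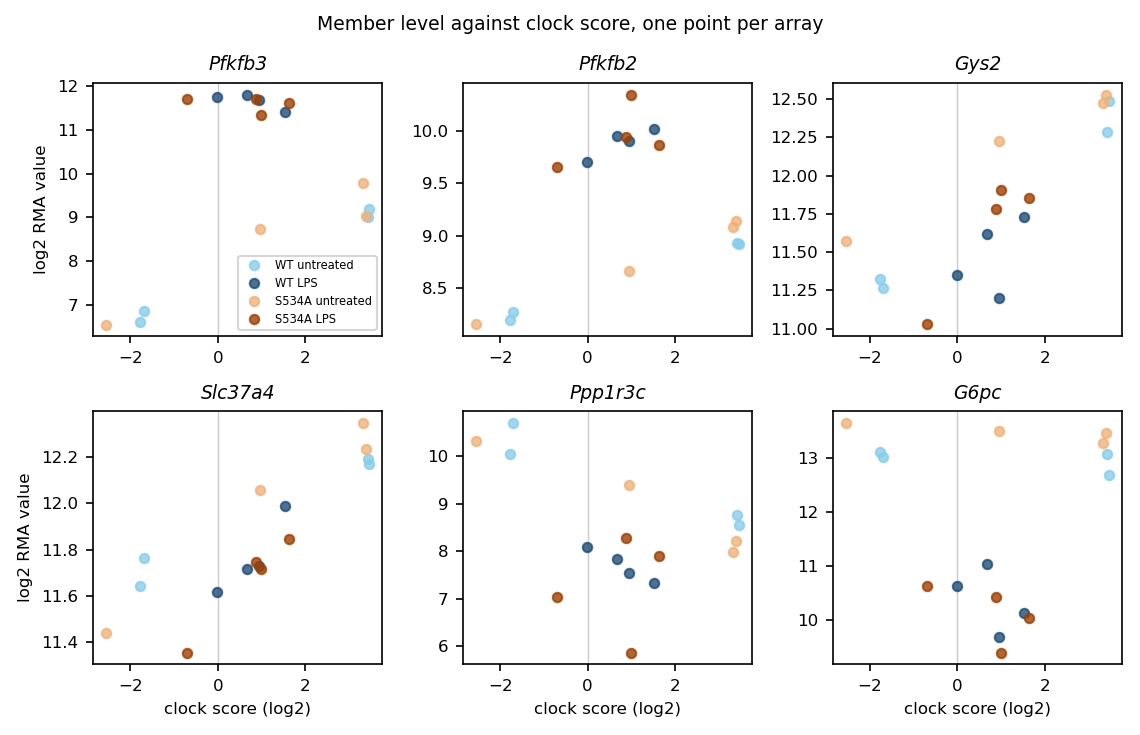
Log2 RMA values of 6 genes are plotted against the clock score of the same array, with 1 point for each of the 16 arrays coloured by group. Pfkfb3, Pfkfb2, Gys2 and Slc37a4 are lower and Ppp1r3c is higher in the 3 untreated arrays left of 0, and G6pc shows no such separation among untreated arrays.

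With the clock score as a covariate, Pfkfb3 changed by 3.78 in WT and 3.32 in S534A, and its standard error fell from 0.60 to 0.25. Pfkfb2 changed by 1.33 and 1.28, with a standard error of 0.09 or 0.10. Gys2 then passed in both genotypes (-0.35 and -0.44, limma adjusted p = 0.0212 and 0.00507), as Ugp2 did in WT (-0.31, 0.00556), Pck1 in WT (0.34, 0.00305), and Slc37a4 (-0.28, 0.00548) and Gbe1 (-0.27, 0.0263) in S534A. The members called in the main test all stayed called with this covariate. WT LPS arrays scored -0.01 to 1.53, between the low and the high untreated arrays of WT, and the covariate moved the WT changes little. It is therefore no check on how far the low-scoring arrays shift a WT change. Without those arrays the WT change of Pfkfb3 was 2.55. The WT calls of Pgk1, Pygl and Ppp1r3c and the S534A call of Pfkfb4 then ended.

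Between the genotypes, none of the 33 genes passed the test. After LPS, 0 members differed between S534A and WT at an adjusted p below 0.05 (limma), as for 0% of all genes tested, and 0 had an unadjusted p below 0.05, against 3% of all genes. The differences ran from -0.43 for Ppp1r3c to 0.77 for Ppp1r3g, with a median of -0.01. The fit gives each gene 1 spread over all 4 groups, so an interval is wide where any group was uneven. The 95% interval of S534A minus WT after LPS was -0.11 to 0.12 for Pcx, -0.18 to 0.20 for Pfkm and -0.20 to 0.14 for Ldha. For G6pc it was -0.80 to 0.30 and for Pfkfb3 -1.34 to 1.20. The LPS arrays of Pfkfb3 were even, with an SD of 0.17 in each genotype. Its untreated arrays had an SD of 1.38 in WT and 1.39 in S534A. In the interaction, which sets the S534A change against the WT change, 0 members passed, again as for 0% of all genes. Gckr alone had an unadjusted p below 0.05 (0.0476, limma), where 4.82% of all genes did. The 3 genes called in S534A alone are thus not shown to respond differently.

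In untreated liver, 0 members passed (limma), against 0.0126% of all genes, and 5 had an unadjusted p below 0.05, against 8.88% of all genes. They were Pgam1, Eno3, Pck1, Gbe1 and Ppp1r3g. Ppp1r3g differed most, at 1.81 ± 0.50 (S534A minus WT, adjusted p = 0.248, limma). Its untreated S534A arrays lay between 8.95 and 10.31, and 3 of the 4 WT arrays between 7.07 and 7.56 with replicate 2 at 9.98. Without WT replicate 2 the difference was 2.49 (limma, adjusted p = 0.00793), and over all alternatives run it ranged from 1.28 to 2.49 with an adjusted p of 0.00793 to 0.66. With array quality weights, Ppp1r3g (2.28, adjusted p = 0.0167) and Pck1 (0.52, 0.0347) passed. The untreated groups hold 2 low-scoring arrays in WT and 1 in S534A, and Pck1 is among the genes that separated by clock score.

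**Figure D4:**
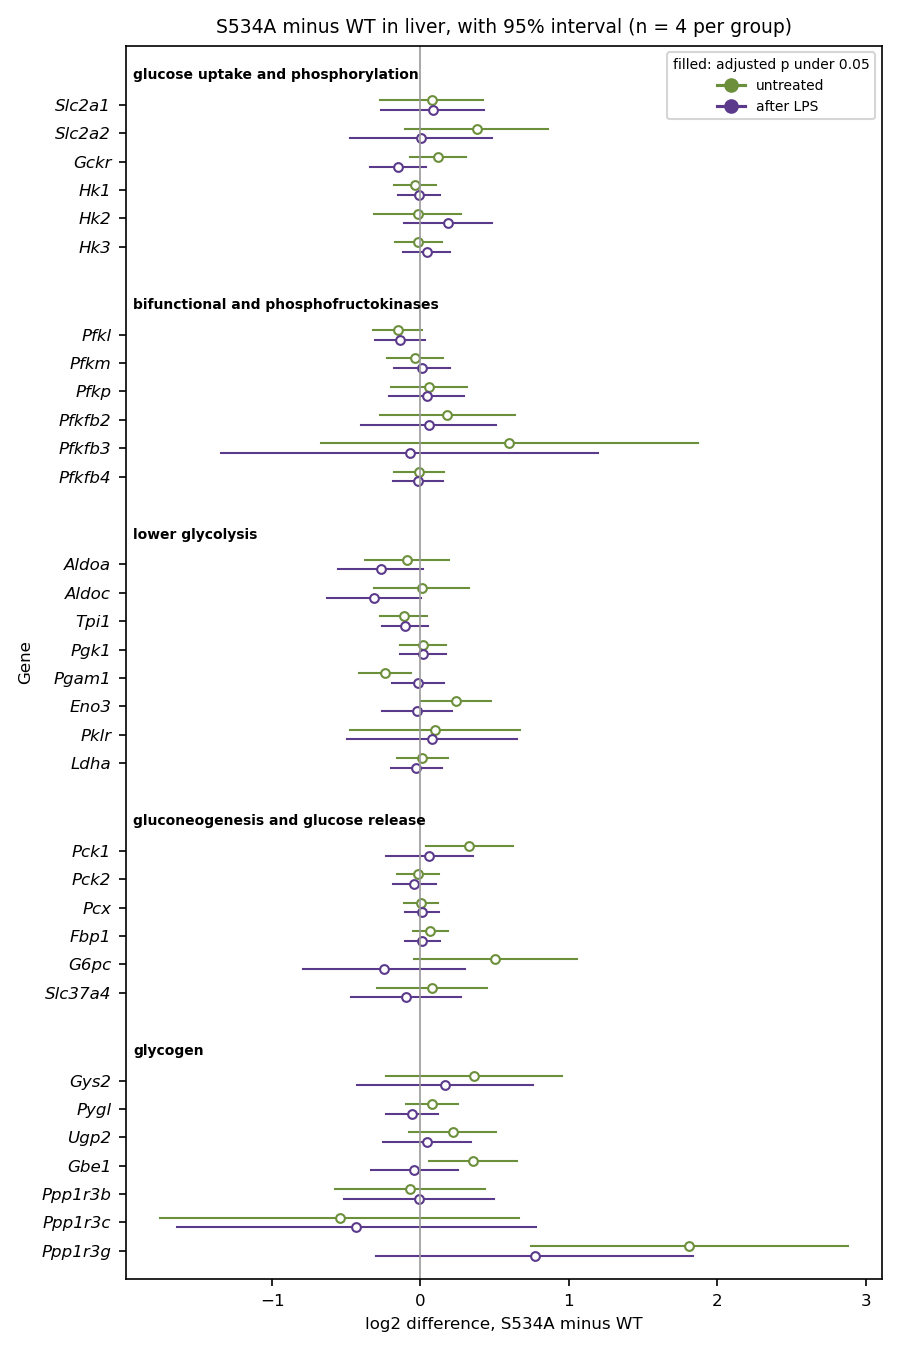
The log2 difference of S534A minus WT is plotted for the 33 genes, grouped by role, with its 95% interval from limma, in untreated liver (green) and after LPS (purple), with filled points where the adjusted p was below 0.05. No point is filled, and the widest intervals are those of Pfkfb3, Ppp1r3c and Ppp1r3g.

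Other genes of glucose metabolism, from lists that do not contain the 37, moved as follows. Of 16 other measured genes of glycolysis and gluconeogenesis, 2 rose and 4 fell in WT and 3 rose and 7 fell in S534A. They included G6pc3, the widely expressed phosphatase related to G6pc, which fell from 8.49 to 8.89 down to 7.46 to 7.86 in WT (-1.03 ± 0.11, limma adjusted p = 9.41e-07). Galm, which interconverts the sugar's anomers, changed by -0.58, Bpgm, which makes the bisphosphoglycerate of red cells, by -0.34, and Adpgk, a kinase that uses ADP, by -0.30. Gapdh is not analysed here. Of 20 other glycogen genes, 1 rose and 11 fell in WT, and 1 rose and 12 fell in S534A. Pgm2, of the phosphoglucomutase family, rose by 1.08 ± 0.09 in WT, from 7.80 to 8.06 up to 8.83 to 9.12. Phka2, the liver regulatory subunit of phosphorylase kinase, changed by -0.73, Epm2a, the glycogen phosphatase laforin, by -0.61, and Pygb, the brain phosphorylase, by -0.95. The median change of these glycogen genes was -0.34 in WT and -0.36 in S534A, beside -0.05 and -0.03 over all genes.

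Among 13 transporters of sugar, lactate and pyruvate, 3 rose and 4 fell in WT, and 2 rose and 6 fell in S534A. Slc2a6, a lysosomal hexose transporter known from macrophages, rose by 1.54 ± 0.10 in WT (limma, adjusted p = 3.35e-09) and 1.52 in S534A. Slc2a9, a urate transporter, changed by -0.69 in WT, Slc2a5, the fructose transporter, by -1.11, and Slc2a8 by -0.41. Of 11 genes of the pentose phosphate and fructose lists, 4 rose and 3 fell in WT, and 3 rose and 1 fell in S534A. The 2 enzymes that divert fructose phosphate to hexosamines rose in WT, Gfpt1 by 0.66 and Gfpt2 by 0.50, as did H6pd, the dehydrogenase of the endoplasmic reticulum, by 0.38, while transketolase (Tkt) changed by -0.34. Of 11 genes of the pyruvate dehydrogenase complex and its kinases and phosphatases, 1 rose and 5 fell in WT and 0 rose and 6 fell in S534A. The kinase Pdk2 changed by -1.06, the phosphatase Pdp2 by -1.10, the phosphatase regulatory subunit Pdpr by -0.62 and the core subunit Dlat by -0.44 in WT.

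Of 32 hormone receptors, signalling proteins and transcription factors that act on these genes, 10 rose and 15 fell in WT and 6 rose and 14 fell in S534A. Irs1, the insulin receptor substrate, fell from 8.53 to 9.13 down to 6.07 to 6.59 in WT (-2.48 ± 0.13, limma adjusted p = 1.51e-10) and changed by -2.31 in S534A. Igfbp1, an insulin-repressed secreted binding protein, rose by 2.87 ± 0.26 in WT (adjusted p = 1.56e-07, limma) and 1.24 in S534A. Cebpb, an inflammation-induced transcription factor that also acts on gluconeogenic genes, rose by 1.45, and Hif1a, the oxygen-sensitive activator of glycolytic genes, by 1.04 in WT. In untreated liver Igfbp1 alone of this list differed between the genotypes, at 2.00 ± 0.26 higher in S534A (limma, adjusted p = 0.0168), and after LPS no gene of it passed. The untreated call of Igfbp1 was lost without the 3 arrays scoring below 0, where 0 of all genes were called higher in S534A. It was also lost with the replicate block or with only the groups compared. Leaving out WT untreated replicate 1 or S534A untreated replicate 2, 3 or 4 ended it too.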

How the data were processed

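The deposited table holds log2 values of 35556 probe sets in 16 arrays of mouse liver, made by the authors with RMA per the submitters' processing notes (version not given in the sources used here), which corrects background, normalizes by quantiles and summarises probes. Values ran from 3.49 to 14.54, and no 2 arrays were identical. A microarray gives no read depth, and 4 arrays per group limit the precision. Probe sets were named from the platform annotation: 21789 had 1 symbol and were used, 1621 had several and 12146 none. Each gene was read from its probe set of highest mean, and genes above the 30th percentile of an array in at least 4 arrays were tested. Group means of the 4 groups were fitted to 15908 genes with lmFit and eBayes of limma 3.58.1 (R 4.3.3), with Benjamini-Hochberg adjustment over all of them and a threshold of 0.05; ± is the standard error of that fit. The same code was tested on simulated data. The 37 genes, their roles and the other lists were chosen with earlier results of these data known. Members that passed without overlap between groups are given in every array, as are some others where single arrays bear on the call, and the rest by range or change. From each other list at most 4 genes of lowest p in WT are named. The replicate numbers were checked for pairing. Of 24 same-number pairs, 9 correlated above 0.1 (r from -0.49 to 0.59). Their median r was -0.05, against 0.03 over 72 pairs of unlike number. How many of the latter exceeded 0.1 is not given here. The labels name no pairing, and no block was used in the main fit. Promoter windows are RefSeq sequence of GRCm38.p6. Figures were drawn with matplotlib 3.10.9.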

Additional observations from a re-analysis of the deposited data

Results flagged for a closer look

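In 10 of 132 groups of 4 arrays, 1 array stood apart from the other 3 by Dixon's criterion (its gap to the nearest array as a share of the group's range), where chance alone gives about 1 in 20 groups. Hk2 had 3 of these: WT untreated replicate 3 at 6.64, S534A untreated replicate 1 at 6.31 and S534A LPS replicate 1 at 8.15. Aldoa stood apart in LPS replicate 1 of each genotype, low in WT at 10.05 and high in S534A at 10.34. Gckr read 11.10 in S534A untreated replicate 3, above the other 3. Pfkp read 6.82 in WT LPS replicate 2 and Ldha 13.71 in S534A LPS replicate 2, both the highest of their groups. Gys2 read 11.03 in S534A LPS replicate 2, the lowest of its group. Ppp1r3g read 9.98 in WT untreated replicate 2, at the level of the untreated S534A arrays.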

How the results depend on the processing

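Over 1922 recomputed changes of the 33 genes (both genotypes, all alternatives), 1796 kept their side of the threshold, 88 lost the call and 38 gained it. Of the 88 losses, 19 came from the 1.5-fold minimum and 9 from an adjusted p of 0.01. Leaving out an array of the other genotype moves only the standard error and adjusted p of a change, so the alternatives are not equally severe. The sign turned in 17 of the 1796, all uncalled changes near 0 (Fbp1, Gbe1, Hk1 and Pck1), and in none of the called ones. A minimum change of 1.5-fold left 5 members higher and 9 lower in WT and 5 higher and 11 lower in S534A. The share of all genes at this minimum is not given here, so these counts cannot be set against it. The same minimum left 1 of 6 called genes in the other glycolysis list, 6 of 12 in other glycogen, 3 of 7 in transport, 1 of 7 in pentose phosphate and fructose, and 14 of 25 in hormonal and transcriptional control. Leaving out each array in turn gave 7 to 9 members higher and 12 to 16 lower in WT, and 7 to 8 higher and 15 to 19 lower in S534A. Of all 15908 genes, 2189 to 2431 were then higher and 4325 to 5037 lower in WT. In S534A, 1999 to 2505 were higher and 4569 to 5155 lower. In untreated liver, S534A against WT, 2 members were called higher with array quality weights and 0 to 1 when 1 array was left out. Of all 15908 genes, 215 were called higher with array quality weights and 0 to 4 when 1 array was left out. With the replicate block, 8 members rose and 13 fell in WT and 8 rose and 17 fell in S534A. Of all 15908 genes, 2333 then rose and 4655 fell in WT, and 2203 rose and 4889 fell in S534A. The WT calls of Pgk1 and Pygl and the S534A call of Pgk1 were lost with the block, and the replicate numbers mark no known pairing. The cause of these changes was not tested. Genes near background and the 4 arrays per group limit what could be detected.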
